A study of Mus musculus with 5 samples.

Results

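The genes described here encode the colony-stimulating factor CSF1 and the receptor chains for CSF1, GM-CSF, IL-3, G-CSF, and stem cell factor. They were taken by symbol, 8 of the 17058 genes listed in the deposited libraries (*Csf1*, *Csf1r*, *Csf2ra*, *Csf2rb*, *Csf2rb2*, *Csf3r*, *Il3ra*, and *Kit*), and all 8 had counts in every library and passed the filter on low counts that left 12576 genes to test. The RNA came from bone marrow-derived macrophages (BMDMs) of young adult female Balb/c mice, grown in M-CSF, which is the *Csf1* protein, and then cultured for 48 hours across a porous membrane from 4T1 mouse mammary carcinoma cells. In 2 libraries the 4T1 cells were wild-type (WT coculture), and in 3 they carried a CRISPR/Cas9 knock-out of *Adam17*, the gene of a membrane sheddase (*Adam17*-/- coculture). The macrophages were wild-type in both groups. All 3 *Adam17*-/- libraries carry the same knock-out designation, 2.8, and what the loss of *Adam17* does and what else sets this line apart from its parent cannot be told apart. The labels do not say whether the libraries came from separate animals, and the p-values then measure only the spread between these samples.

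Colony-stimulating factors were named for the blood cell colonies they support in culture. CSF1 acts through the receptor tyrosine kinase CSF1R and keeps macrophages alive, while stem cell factor acts through the related kinase KIT on progenitors and mast cells. GM-CSF and IL-3 each bind an α chain of their own (*Csf2ra* and *Il3ra*), which signals through a shared β chain (*Csf2rb*); mice have a further β chain that serves IL-3 alone (*Csf2rb2*). G-CSF acts through CSF3R, the receptor of the neutrophil lineage. The β chains and CSF3R have no kinase of their own and signal through JAK kinases and STAT factors.

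The libraries held 14658694 to 20788373 expected counts, and a count of 3, taken as the floor of detection, corresponded to 0.157 to 0.197 CPM (counts scaled to a common library size with TMM factors). All 9 macrophage markers examined were detected in every library, led by *Lyz2* and *Itgam*, and summed to 23545 and 24041 CPM in the WT cocultures and 14470 to 16035 CPM in the *Adam17*-/- cocultures, with 8 of the 9 lower at an adjusted p of 0.05 or less, as were 16.8% of all genes tested. Of 10 epithelial markers of the cancer cells, *Cdh1* alone was abundant enough to be tested (11.2 ± 0.899 and 12.4 ± 0.938 CPM, adjusted p = 0.422), and *Epcam* had at most 1 count in a library. Other marker lists held genes that were higher in *Adam17*-/- coculture and 0 that were lower, 6 of 7 for megakaryocytes, 3 of 6 tested for dendritic cells, and 2 of 5 tested for fibroblasts, against 14.9% of all genes tested. Of the 6 dendritic cell markers tested, *Cd209a* had a negative log2 fold change (-0.58, adjusted p = 0.229). The median of the 6 was 0.79, and 0.58 without WT replicate 2. *Adam17* in the macrophages stood at 197 and 200 CPM in the WT cocultures and 152, 164, and 160 CPM in the *Adam17*-/- cocultures. The WT replicates stood apart from each other: all 8 genes of the family were higher in WT replicate 1 than in WT replicate 2, as were 55.0% of all genes tested. In whole-culture RNA, fewer cells of a type and less RNA per cell cannot be told apart.

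The β chain genes *Csf2rb* and *Csf2rb2* are near copies on chromosome 15, and their sequences are shown because they decide how far the counts of each can be trusted. The GENCODE transcripts compared here lie 20269 bases apart, and the RefSeq bounds of the genes, given further on, differ somewhat from their ends. Over 2626 aligned coding bases (GENCODE, GRCm38), 95.35% were identical, with 122 mismatches and 70 gap bases. The 90-base stretch without gaps that differed most had 16 mismatches, marked in capitals. In both genes it lies within coding exon 4, at chr15:78338897-78338986 on the plus strand for *Csf2rb* and at chr15:78294345-78294434 on the minus strand for *Csf2rb2*.
Csf2rb: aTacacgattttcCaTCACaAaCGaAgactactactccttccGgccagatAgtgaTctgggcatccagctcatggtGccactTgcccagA
Csf2rb2: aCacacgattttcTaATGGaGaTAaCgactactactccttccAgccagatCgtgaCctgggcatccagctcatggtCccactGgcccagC

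Other stretches were identical. The first 90-base stretch with 0 mismatches spans the junction of exons 6 and 7 in both genes, and the longest identical run in the coding alignment was 242 bases. A read of 150 bases from such a stretch could belong to either gene, and 3.59% of all 150-base windows of the *Csf2rb2* transcript also occur in that of *Csf2rb*.
Csf2rb and Csf2rb2: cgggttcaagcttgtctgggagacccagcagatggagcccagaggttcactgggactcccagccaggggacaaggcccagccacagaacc

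The deposited counts show this sharing. The sums per gene were not whole for *Csf2rb* or *Csf2rb2* in any library, whereas the total of the pair was whole (within 0.015) in 4 of the 5 libraries. Reads were therefore divided between the genes by estimate, and their total is better determined than either part. *Csf3r* also had sums that were not whole, and the gene that shares its reads was not identified. The sums of the other 5 genes were whole within 0.015 in every library.

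RefSeq promoters (GRCm38.p6) were matched for 6 of the 8 genes. The 250 bases before the transcript start of that table are shown for *Csf3r*, *Csf2rb2*, and *Csf2ra*, cytokine receptor genes whose promoter holds the core letters GAGGAA of sites for the ETS factor PU.1, because the PU.1 gene itself was lower in *Adam17*-/- coculture, as described further on. Capitals mark GAGGAA and the core letters GCAAT of sites for C/EBP factors, on either strand, and no marked sites overlap. Not all of these bases lie outside the gene as RefSeq draws it, since some annotated transcripts start further upstream. The whole *Csf3r* stretch lies inside the gene, whose first base is 1218 bases before the start used here, and the *Csf2ra* stretch overlaps its gene by 43 bases that hold both of its GAGGAA matches. The *Csf2rb2* stretch ends where the gene begins. The first holds chr4:126024409-126024658 on the plus strand, the second chr15:78305722-78305971 on the minus strand, and the last chr19:61228419-61228668 on the minus strand.
Csf3r: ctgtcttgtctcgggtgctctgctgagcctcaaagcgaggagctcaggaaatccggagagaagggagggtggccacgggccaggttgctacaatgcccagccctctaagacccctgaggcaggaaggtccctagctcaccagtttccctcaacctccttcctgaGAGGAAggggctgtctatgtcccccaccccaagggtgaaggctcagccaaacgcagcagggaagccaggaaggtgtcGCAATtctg
Csf2rb2: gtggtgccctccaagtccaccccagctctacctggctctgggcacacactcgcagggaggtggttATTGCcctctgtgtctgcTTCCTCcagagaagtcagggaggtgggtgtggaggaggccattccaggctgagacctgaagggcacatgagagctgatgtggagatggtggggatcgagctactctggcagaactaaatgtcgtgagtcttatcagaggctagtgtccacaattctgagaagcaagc
Csf2ra: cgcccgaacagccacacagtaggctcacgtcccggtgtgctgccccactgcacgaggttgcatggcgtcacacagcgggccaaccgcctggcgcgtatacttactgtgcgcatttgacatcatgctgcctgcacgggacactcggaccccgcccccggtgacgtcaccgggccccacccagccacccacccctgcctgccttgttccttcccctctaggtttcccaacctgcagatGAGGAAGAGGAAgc

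GAGGAA or its reverse complement TTCCTC occurred 2 times in the *Csf2ra* promoter and 1 time each in those of *Csf3r*, *Csf2rb2*, and *Kit*, and was absent from those of *Csf1* and *Il3ra*. It occurs in 23.3% of the 32851 promoters of that table. GCAAT or ATTGC, found in 23.1% of all promoters, occurred 1 time each in *Csf3r*, *Csf2rb2*, *Il3ra*, and *Kit*. The palindromic STAT letters TTCNNNGAA (7.02% of promoters) occurred in that of *Csf2rb2* only among the 6, and the AP-1 letters TGANTCA (6.75%) in none of the 6. A match of letters is a description and not a binding site.

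Compared per length, the transcripts of the family spanned more than 3 orders of magnitude, and each gene kept its rank in every library. *Csf1r* came first, with an FPKM (fragments scaled to transcript length and library size, summed over the transcripts of a gene) of 1320 ± 47.7 (SD, n = 2) in WT coculture and 1194 ± 80.5 (SD, n = 3) in *Adam17*-/- coculture. *Csf2rb* followed at 659 ± 27.2 and 608 ± 17.2, *Csf2rb2* at 358 ± 2.46 and 348 ± 10.3, and *Csf2ra* at 222 ± 62.3 and 203 ± 4.57. *Csf3r* was next at 93.0 ± 13.2 and 155 ± 13.3. The remaining genes lay far below these, with *Il3ra* at 13.96 ± 2.66 and 15.6 ± 0.340, *Csf1* at 5.19 ± 1.97 and 8.37 ± 0.687, and *Kit* at 0.160 ± 0.0849 and 0.383 ± 0.0702. The ranges of neighbours in this order did not overlap over the 5 libraries, although *Csf2ra* (178 to 266) and *Csf3r* (83.7 to 165) lay close together.

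**Figure D1:**
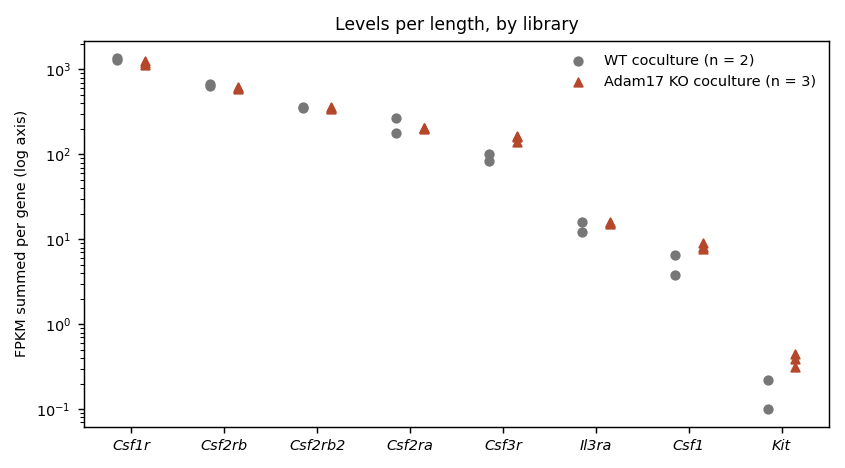
FPKM summed per gene (log axis) for the 8 genes in each library, with circles for the 2 WT cocultures and triangles for the 3 *Adam17*-/- cocultures. Genes are ordered by mean FPKM, from *Csf1r* (1113 to 1354) to *Kit* (0.10 to 0.45).

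Transcripts of every chain of the CSF1, GM-CSF, IL-3, and G-CSF receptors were thus present in each library. Between the chains of the GM-CSF receptor, *Csf2rb* exceeded *Csf2ra* by 2.55 to 3.59 times in FPKM. The IL-3 receptor α chain was scarcer, and *Csf2ra* exceeded *Il3ra* by 12.6 to 16.8 times. *Csf1r* exceeded *Csf2rb* by 1.89 to 2.04 times, a ratio that differed little between groups (log2 ratio 1.00 ± 0.00748 and 0.97 ± 0.0567, exact permutation p = 0.6).

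Which of these genes differed between the cocultures was asked with edgeR's quasi-likelihood test over all genes. The limit for passing was 0.05 on the p adjusted after Benjamini and Hochberg. *Csf3r* and *Kit* passed as higher in *Adam17*-/- coculture, and 0 of the 8 genes passed as lower, though DESeq2 called 2 lower (11.3% of the genes in that fit). With 2 of 8 genes, the family lay near the background, since 31.7% of all genes tested passed, 14.9% as higher and 16.8% as lower. At an unadjusted p under 0.05, 6 of the 8 genes passed, as did 43.5% of all genes tested. *Kit* alone also met a limit of 1 on the absolute log2 fold change, which 4.22% of all genes tested met together with the adjusted p, 3.36% as higher and 0.867% as lower. These counts moved with single libraries, as did the share of all genes called. Without WT replicate 1, 3 of the 8 genes passed as higher (14.5% of all genes in that fit). Without WT replicate 2, 1 passed as higher (19.1% of all genes) and 3, *Csf1r*, *Csf2ra*, and *Csf2rb*, as lower (22.8%). Without any of the *Adam17*-/- replicates, 1 passed as higher, where 8.73% to 9.96% of all genes did. In 6 of the 8 genes the groups did not overlap in CPM (58.1% of all genes tested), with *Csf1*, *Csf3r*, and *Kit* higher in every *Adam17*-/- library than in either WT library (28.3% of all genes) and *Csf1r*, *Csf2rb*, and *Csf2rb2* lower (29.7%).

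**Figure D2:**
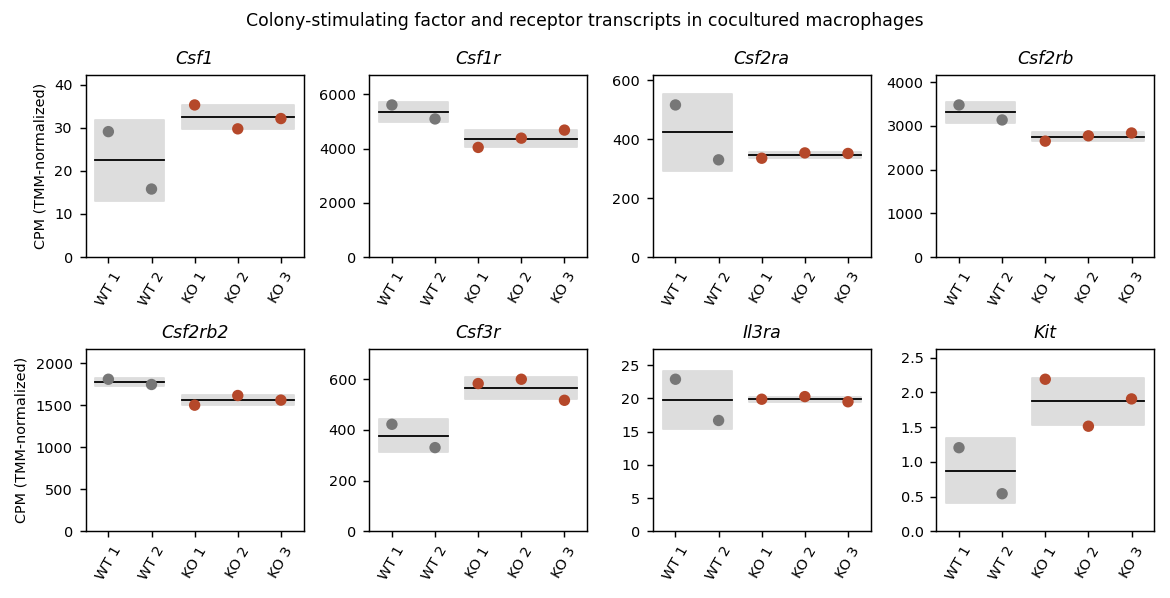
TMM-normalized CPM of each gene in each of the 5 libraries, with the group mean (line) and mean ± SD (grey band; n = 2 WT, n = 3 *Adam17*-/-, labelled KO). *Csf3r* was at 330 and 422 CPM in WT coculture and 516 to 599 CPM in *Adam17*-/- coculture, and WT replicate 1 exceeded WT replicate 2 for all 8 genes.

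**Figure D3:**
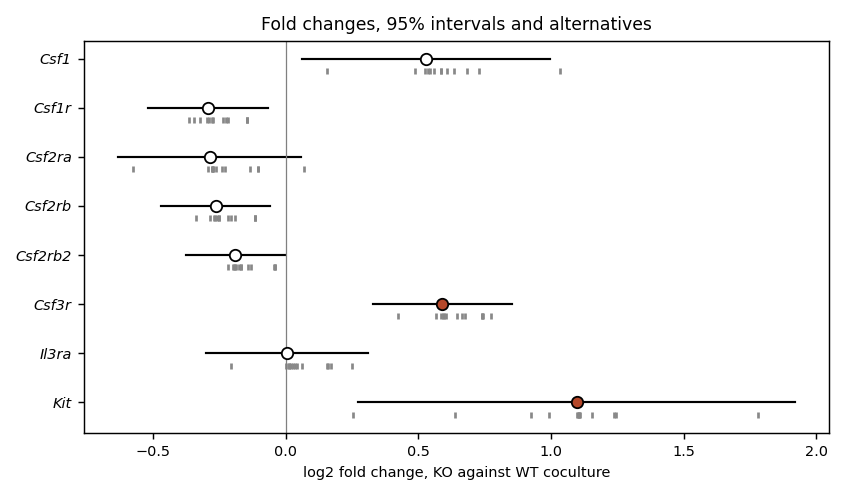
Log2 fold change of each gene, *Adam17*-/- against WT coculture, with its 95% interval (line); filled circles passed an adjusted p of 0.05, open circles did not, and grey ticks give the alternatives, including each library left out. The interval of *Csf3r* ran from 0.33 to 0.85 and that of *Il3ra* from -0.30 to 0.31.

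*Csf1* (Entrez 12977; on chromosome 3 from 107741048 to 107760469, GRCm38), the gene of the CSF1R ligand, was a low transcript, at 29.1 and 15.8 CPM in WT replicates 1 and 2 and at 35.3, 29.8, and 32.2 CPM in the *Adam17*-/- replicates. All *Adam17*-/- libraries lay above both WT libraries, but WT replicate 1 came within 1 CPM of the lowest of them. The log2 fold change was 0.53 (standard error, SE, 0.209, 95% interval 0.06 to 1.00, adjusted p = 0.0795). The call moved with the WT replicate left out, with a log2 fold change of 1.04 (adjusted p = 0.000116) without WT replicate 1 and 0.15 (adjusted p = 0.284) without WT replicate 2. It also moved with the method: with all 5 libraries *Csf1* passed with DESeq2 (0.53, adjusted p = 0.0324) and without the filter on low counts (0.54, adjusted p = 0.0151), and under scaling by library size only (0.68, adjusted p = 0.0317). That scaling moved the median of all genes from 0.01 to 0.16.

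Of the 3 *Csf1* transcripts in the libraries, the longest, of 4192 bases, held most counts, 98.4% and 92.4% of the gene in WT coculture against 97.8%, 92.8%, and 96.2% in the *Adam17*-/- libraries. The shorter ones, of 3307 and 2324 bases, each held at most 5.35%. The share of the longest differed between groups by 0.227 percentage points (exact permutation p = 0.9), far less than between the WT replicates. A test of 2 against 3 samples cannot give a p under 0.1.

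Of the other ligands, 5 had at most 3 counts in any library or no listed transcript. *Csf2* (GM-CSF) had 1 count in 1 library, *Csf3* (G-CSF) 2 counts in each of 2 libraries, *Il5* at most 2 counts, and *Il34*, the second ligand of CSF1R, at most 3 counts, while *Il3* had no listed transcript. *Kitl*, which encodes stem cell factor, had 23 to 40 counts per library and was at 1.99 and 2.16 CPM in WT coculture and 1.51 to 1.696 CPM in *Adam17*-/- coculture (log2 fold change -0.34, adjusted p = 0.301). *Flt3l*, the ligand of the related kinase FLT3, was at 6.82 ± 0.929 and 6.21 ± 0.714 CPM (adjusted p = 0.569). Per length, *Flt3l* stood at an FPKM of 6.87 and 6.04 in WT coculture, above *Csf1* at 6.58 and 3.8. In *Adam17*-/- coculture *Flt3l* was at 6.84, 5.65, and 6.94, below *Csf1* at 9.13, 7.79, and 8.20. The cancer cells, across the membrane, were not part of these libraries.

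*Csf1r* (12978, chromosome 18, 61105572 to 61131139) stood at 5612 and 5096 CPM in WT coculture and at 4045, 4387, and 4684 CPM in the *Adam17*-/- libraries. The groups did not overlap, but the gap between the nearest libraries, 5096 and 4684 CPM, was smaller than that between the WT replicates. The log2 fold change was -0.29 (standard error 0.101, 95% interval -0.52 to -0.07, adjusted p = 0.0520), just beyond the limit. With library size only, which moved the median of all genes from 0.01 to 0.16, it was -0.14 (adjusted p = 0.233). DESeq2 gave -0.30 (adjusted p = 0.0104), and without WT replicate 2 the log2 fold change was -0.36. The macrophage markers moved further in the same direction, with a median log2 fold change of -0.64 for the 9 genes, and their part in the *Csf1r* values was not tested.

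The chains of the GM-CSF and IL-3 receptors did not pass. *Csf2rb* (12983, chromosome 15, 78325800 to 78351001), the shared β chain, was at 3477 and 3134 CPM in WT coculture and 2650, 2772, and 2836 CPM in *Adam17*-/- coculture, a log2 fold change of -0.26 (SE 0.0915, adjusted p = 0.0523). *Csf2rb2* (12984, chromosome 15, 78282507 to 78305721), the β chain of IL-3 alone, was at 1809 and 1747 CPM and at 1500, 1615, and 1561 CPM, which gave -0.19 (SE 0.0841, adjusted p = 0.113). Both genes were lower in every *Adam17*-/- library than in either WT library. Library size only, with the median of all genes at 0.16, left -0.12 and -0.04. Without WT replicate 2 the log2 fold change of *Csf2rb* was -0.34.

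Counted as 1 gene, which avoids the division of shared reads, the β chains stood at 5084 ± 287 CPM (SD, n = 2) and 4311 ± 140 CPM (SD, n = 3), and differed on the log2 scale by -0.24 (standard error 0.0917, 95% interval -0.44 to -0.03, adjusted p = 0.0744). The estimated share of *Csf2rb2* in the pair was 34.2% and 35.8% in WT coculture against 36.2%, 36.8%, and 35.5% in the *Adam17*-/- libraries. These ranges overlapped, so no shift from one β chain to the other was detected (exact permutation p = 0.3). Within *Csf2rb2*, the transcript of 4740 bases held 91.7% to 97.3% of the counts, with its lowest share in *Adam17*-/- replicate 1.

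*Csf2ra* (12982, chromosome 19, 61217191 to 61228461), the α chain of the GM-CSF receptor, was at 516 and 330 CPM in WT replicates 1 and 2, against 335, 354, and 352 CPM in the *Adam17*-/- replicates. The groups overlapped, and the *Adam17*-/- libraries sat close to WT replicate 2. The log2 fold change was -0.29 (95% interval -0.63 to 0.06, adjusted p = 0.180), turned to 0.07 (adjusted p = 0.520) without WT replicate 1, and fell to -0.58 (adjusted p = 8.06e-05) without WT replicate 2. No direction can be given for this gene.

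*Il3ra* (16188, chromosome 14, 14345912 to 14355493), the α chain of the IL-3 receptor, was at 22.9 and 16.7 CPM in WT coculture and 19.9, 20.3, and 19.5 CPM in *Adam17*-/- coculture. All *Adam17*-/- values lay between the WT values. The log2 fold change was 0.01 with a 95% interval of -0.30 to 0.31 (adjusted p = 0.977), and it was 0.25 without WT replicate 1 and -0.21 without WT replicate 2, neither passing. *Il5ra*, the α chain that joins the same β chain for IL-5, had expected counts of 2 and 2.02 in WT coculture against 8.61, 6, and 8.99 in *Adam17*-/- coculture, too few to be tested.

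*Csf3r* (12986, chromosome 4, 126023441 to 126044975), the G-CSF receptor, rose from 422 and 330 CPM in WT coculture to 582, 599, and 516 CPM in *Adam17*-/- coculture. Every *Adam17*-/- library exceeded both WT libraries. Group means were 376 ± 65.0 (SD, n = 2) and 566 ± 43.8 (SD, n = 3), and the log2 fold change was 0.59 ± 0.117 (SE; adjusted p = 0.00569). It passed under all 13 alternatives, with log2 fold changes of 0.42 (without WT replicate 2) to 0.77 (without WT replicate 1).

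Relative to *Csf1r*, the change was larger, and this ratio within a library does not depend on the scaling of libraries. *Csf1r* exceeded *Csf3r* by 13.2 and 15.4 times in FPKM in WT coculture and by 6.90, 7.25, and 9.09 times in the *Adam17*-/- libraries. The log2 ratio was 3.83 ± 0.153 and 2.94 ± 0.212 (exact permutation p = 0.1, the smallest that 2 against 3 samples allow). *Csf2ra* exceeded *Csf3r* by 2.60 and 2.13 times and by 1.22, 1.25, and 1.46 times, likewise without overlap (exact permutation p = 0.1).

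Of the 3 *Csf3r* transcripts, the one of 3907 bases held 72.5% and 75.6% of the counts in WT coculture and 75.3%, 69.7%, and 84.1% in *Adam17*-/- coculture. The transcript of 3583 bases held 16.8% and 16.4% against 17.6%, 21.1%, and 8.29%. *Adam17*-/- replicate 3 differed from the other libraries in both shares. The transcript of 3948 bases, annotated as noncoding, held 10.7% and 8.001% against 7.14%, 9.23%, and 7.64%. The groups overlapped for each of the 3 transcripts (exact permutation p = 0.9, 1, and 0.4), so the rise of the gene came with no detected shift between its transcripts.

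Genes of the neutrophil lineage, in which G-CSF receptor is abundant, moved with *Csf3r*. Of 15 neutrophil lineage markers, 11 were higher in *Adam17*-/- coculture (14.9% of all genes tested) and 1, *Mmp9*, lower (16.8%); the median log2 fold change was 1.57 against 0.01 for all genes tested. Summed, they came to 1832 and 1802 CPM in WT coculture against 2948, 2824, and 2637 CPM in the *Adam17*-/- libraries. *S100a9*, a calcium-binding protein of neutrophils and monocytes, went from 194 ± 30.6 to 646 ± 31.9 CPM (log2 fold change 1.73, adjusted p = 0.000115), and *Ltf*, a granule protein, from 19.5 ± 1.83 to 88.6 ± 16.7 CPM (2.18, adjusted p = 0.000145). *Csf3r* changed less than either. The part of these cells in the *Csf3r* values was not tested.

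**Figure D4:**
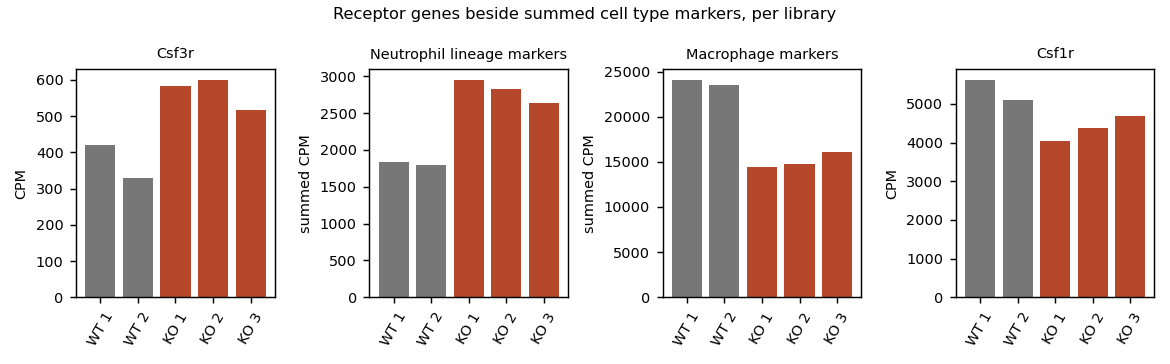
CPM of *Csf3r* and *Csf1r* beside the summed CPM of 15 neutrophil lineage and 9 macrophage markers, 1 bar per library (grey, WT; red, *Adam17*-/-, labelled KO). *Csf3r* and the neutrophil lineage sum were higher in each *Adam17*-/- library than in either WT library, and the macrophage sum and *Csf1r* were lower.

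*Kit* (16590, chromosome 5, 75574987 to 75656722), the stem cell factor receptor, was the scarcest of the family, with counts of 23 and 10 in WT coculture against 40, 23, and 36 in *Adam17*-/- coculture. These are 1.203 and 0.541 CPM against 2.19, 1.51, and 1.91 CPM, without overlap and above the floor of 3 counts. The log2 fold change was 1.10 (standard error 0.368, 95% interval 0.27 to 1.92, adjusted p = 0.0471). The call lay at the limit and was lost in 7 of 13 alternatives, among them DESeq2 (adjusted p = 0.101) and the fits without WT replicate 2 (log2 fold change 0.64, adjusted p = 0.207) or without any of the *Adam17*-/- replicates (adjusted p = 0.0568 to 0.120). Without WT replicate 1 the log2 fold change was 1.78 (adjusted p = 0.0138). On the log2(FPKM + 1) scale, which compresses low genes, it was 0.25.

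All counts of *Kit* were assigned to the shorter transcript, of 5189 bases, in 4 libraries and to the longer, of 5205 bases, in *Adam17*-/- replicate 2, so the assignment was made as a whole and gives no measured share. *Kit* marks progenitors and mast cells. Of 10 mast cell and basophil markers, 2 were tested. *Hdc*, which makes histamine and is also found in myeloid cells, passed as higher and *Gata2* did not, where 14.9% of all genes tested were higher. In some fits 2 markers passed: without *Adam17*-/- replicate 1 (8.73% of all genes), with library size only (24.0%), and with no filter (12.0%). The limma fits on log2(FPKM + 0.1) and log2(FPKM + 1) also called 2 (23.3% and 22.8%). The other 8 were too low to test, with no listed transcript of *Mcpt4* or *Tpsb2* and *Cpa3* at most 3 counts. Among these, *Prss34*, a basophil protease, had 24 counts in *Adam17*-/- replicate 2 and at most 3 in any other library. Of 6 progenitor markers, *Myb*, *Gata1*, and *Spn* passed as higher, where 14.9% of all genes tested did. *Cd34* was at 16.2 ± 5.03 and 12.6 ± 5.05 CPM (adjusted p = 0.399). Without *Adam17*-/- replicate 2 the number higher was 1, where 9.96% of all genes were higher. The median log2 fold change of the 6 was 0.88, and 0.62 without WT replicate 2. The summed progenitor markers were 55.7 and 40.4 CPM in WT coculture and 51.0, 49.4, and 56.9 CPM in *Adam17*-/- coculture, so that the groups overlapped. *Flt3*, a related kinase of progenitors and dendritic cells, was at 1.04 ± 0.163 and 1.79 ± 0.440 CPM (log2 fold change 0.79, adjusted p = 0.0853). The part of such cells in the *Kit* values was not tested.

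Downstream of the receptors, a list of 28 genes held the JAK kinases, STAT factors, adaptors, and phosphatases that act next to them. In *Adam17*-/- coculture, 14 of these were lower, 2 were higher, and 12 did not pass, where 16.8% of all genes tested were lower and 14.9% higher. The list had a median log2 fold change of -0.27 against 0.01 for all genes tested. *Dok2*, an adaptor that restrains myeloid signaling, fell from 113 ± 16.6 to 55.3 ± 3.87 CPM (log2 fold change -1.03 ± 0.107, adjusted p = 0.000430). *Plcg2*, a phospholipase used by CSF1R and Fc receptors, fell from 317 ± 10.6 to 220 ± 3.46 CPM (log2 fold change -0.53, adjusted p = 0.00136). *Tyrobp*, an adaptor that takes part in CSF1R signaling, was also lower at -0.46 (adjusted p = 0.00332), as was the Src family kinase *Lyn* at -0.26 (adjusted p = 0.0274). The scaling mattered for this list, since with library size only, which moved the median of all genes to 0.16, 6 were lower and 3 higher (8.56% and 24.0% of all genes), with a median of -0.12. Single libraries also moved the number of lower genes, to 6, 7, and 8 without *Adam17*-/- replicates 1, 2, and 3, with 0 higher in each, where 7.42%, 9.38%, and 9.97% of all genes were lower. The macrophage markers fell further in the same libraries (8 of 9 lower, median -0.64), and their part in the values of this list was not tested.

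The JAK-STAT genes of the list did not move together. *Jak2*, the kinase bound to the shared β chain, rose from 80.5 ± 12.9 to 107 ± 2.35 CPM (log2 fold change 0.41 ± 0.104, SE, adjusted p = 0.0166). This call was lost with the replicate number as a block and without any of the *Adam17*-/- replicates. In those fits 0 genes of the list passed as higher, where 8.73% to 9.96% of all genes did. *Jak1* fell from 330 ± 22.9 to 273 ± 5.27 CPM (-0.27, adjusted p = 0.0295). *Stat5a*, one of the STAT5 genes, fell from 31.6 ± 3.46 to 23.9 ± 0.746 CPM (-0.40, adjusted p = 0.0163), while its neighbour *Stat5b* was at 88.3 ± 5.50 and 90.6 ± 2.15 CPM (adjusted p = 0.759).

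Of 9 genes that STAT5 is known to induce or that feed back on these receptors, 4 rose and 1 fell (14.9% and 16.8% of all genes tested). *Socs2*, a SOCS feedback gene, rose from 41.3 and 48.1 CPM to 83.3, 80.7, and 89.8 CPM (log2 fold change 0.92 ± 0.0993, SE, adjusted p = 0.000485). *Cish*, another feedback gene of STAT5, rose from 17.8 and 15.3 to 23.4, 24.1, and 24.6 CPM (0.54, adjusted p = 0.00602), and the kinase *Pim1* from 102 and 93.6 to 145, 155, and 132 CPM (0.56, adjusted p = 0.00293). In these genes the groups did not overlap. *Mcl1*, a survival gene, also rose (0.59, adjusted p = 0.00211), whereas *Bcl2l1*, a survival gene of the same family, fell from 169 ± 24.1 to 96.6 ± 3.34 CPM (-0.81, adjusted p = 0.000711). *Socs1*, *Socs3*, *Osm*, and *Pim2* did not pass, with log2 fold changes of -0.15 to 0.34. The median of the 9 genes was 0.34 and kept its sign under all 13 alternatives. Neutrophil lineage markers were higher in the same libraries (11 of 15, median 1.57), and their part in these values was not tested.

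**Figure D5:**
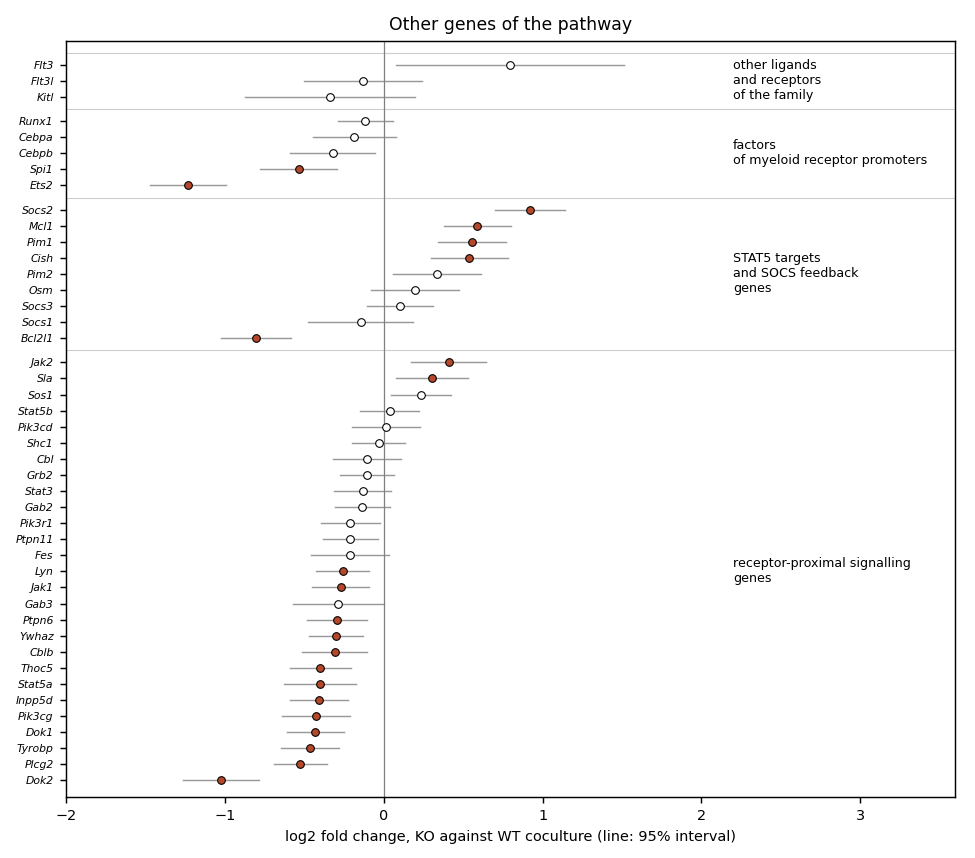
Log2 fold change, *Adam17*-/- against WT coculture, with 95% interval (line), for 44 of the 45 tested genes of the 4 pathway lists; filled circles passed an adjusted p of 0.05. Of the 28 receptor-proximal genes 14 were lower, and of the 9 STAT5 targets and SOCS genes 4 were higher.

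Among 5 transcription factor genes known to act at myeloid receptor promoters, 2 were lower and 0 higher (16.8% and 14.9% of all genes tested), and the median log2 fold change was -0.32. *Spi1*, which encodes PU.1, fell from 460 and 357 CPM to 273, 276, and 296 CPM (log2 fold change -0.53 ± 0.109, SE, adjusted p = 0.00626). *Ets2* fell from 220 ± 11.0 to 93.3 ± 11.6 CPM (-1.23 ± 0.106, SE, adjusted p = 0.000232). *Cebpa*, *Cebpb*, and *Runx1* did not pass, although 4 of the 5 passed as lower without WT replicate 2, where 22.8% of all genes did. The median of the 5 was -0.11 without WT replicate 1 and -0.51 without WT replicate 2. Beside the macrophage markers, with a median of -0.64, the part of those cells in the values of *Spi1* and *Ets2* was not tested. Of the promoters shown above with the PU.1 letters, that of *Csf3r* belongs to a gene that rose, and those of *Csf2ra* and *Csf2rb2* to genes that did not pass. The *Kit* promoter, not shown, also holds these letters, and *Kit* passed as higher with a call at the limit.

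By profile over the 5 libraries, the genes outside the lists nearest to *Csf3r* among 8392 genes with a mean of at least 10 CPM were *Flcn* and *Mapk1ip1*. Their log2 CPM, centred on the mean of each gene, differed from that of *Csf3r* by a root mean square of 0.0262 and 0.0270. *Flcn* was at 169 and 126 CPM in WT coculture against 223, 236, and 201 CPM in the *Adam17*-/- libraries. Nearest to *Kit* were *Stfa2l1* (0.168) and *Mmp25* (0.173), with a poorer match.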

How the data were processed

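Libraries were grouped by the sample labels. Per the methods and the submitters' processing notes, RNA was sequenced on BGISEQ-500 with paired reads, aligned to GRCm38 with HISAT, and quantified with Bowtie2; RSEM, Bowtie, and DESeq2 are also named, and versions are not given in the sources used here. The files the authors deposited hold, by transcript, the expected count without normalization and the FPKM; transcripts under an FPKM of 0.01 are not listed and were taken as 0. Strand use is not given in the sources used here.

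Expected counts were summed per gene, rounded, and tested over all genes with edgeR 4.0.16 in R 4.3.3 (quasi-likelihood test by glmQLFit and glmQLFTest after filterByExpr, TMM factors, no covariates), with Benjamini-Hochberg adjustment; intervals are 95% intervals from that fit. FPKM was also summed per gene. Transcript shares and FPKM ratios were compared by two-sided exact permutation over samples. DESeq2 1.42.0, limma 3.58.1 on log2(FPKM + 0.1) and log2(FPKM + 1), upper quartile factors, library size only, other filters on low counts (none, or at least 10 counts in every sample), the replicate number as a block, and each library left out in turn were alternatives. The edgeR, DESeq2, and limma fits were tested on simulated data. Symbols, coordinates, and promoters came from RefSeq for GRCm38.p6 and coding sequences from GENCODE for GRCm38. Named genes are the 8 members, the pathway and marker lists, *Adam17*, and the 2 genes nearest in pattern to each member that passed. The members and lists were chosen with earlier results of these data known. Of the signaling list, 1 gene is counted with its list but not reported here by name or value.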

Additional observations from a re-analysis of the deposited data

How the results depend on the processing

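The 2 WT libraries set the limits of these comparisons: without 1 of them the fit takes the lone WT sample to vary like the other group. *Csf3r* passed in all alternatives, and *Csf2rb2* in none. *Csf1* passed as higher with DESeq2 (0.53, adjusted p = 0.0324), library size alone (0.68), limma with pseudocounts of 0.1 (0.73) and 1 (0.63) on FPKM, no filter (0.54, adjusted p = 0.0151), and the replicate block (0.58, adjusted p = 0.0213), and its log2 fold change was 0.15 to 1.04 with 1 library left out. The median of all genes moved from 0.01 to 0.16 with library size alone, and to 0.15 and 0.11 in these limma fits. *Csf1r* and *Csf2rb* passed as lower with DESeq2 (-0.30 and -0.27), with no filter (-0.29 and -0.26), and without WT replicate 2; their ranges with 1 library left out were -0.36 to -0.22 and -0.34 to -0.19. *Csf2ra* ranged from -0.58 to 0.0677 and *Il3ra* from -0.21 to 0.25 with 1 library left out, both turning sign. *Kit* did not pass with DESeq2 (1.10), limma on log2(FPKM + 1) (0.25), the replicate block (1.10, adjusted p = 0.0577), or 4 of the 5 fits with 1 library left out (0.64 to 1.78 over the 5).

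The number of the 8 genes that passed as higher was 1 to 3 with 1 library left out (main value 2), where 8.73% to 19.1% of all genes did, and 1 with a limit of 1 on the log2 fold change; as lower it was 2 with DESeq2 (11.3% of all genes), 2 with no filter (12.8%), and 0 to 3 with 1 library left out (7.42% to 22.8%; main value 0). Of the 45 pathway genes tested, 17 passed as lower (16.8% of all genes), but 9 with library size only (8.56%), 10 and 9 with limma on log2(FPKM + 0.1) and log2(FPKM + 1) (8.08% and 8.04%), 9 with the replicate block (8.95%), and 9 to 23 with 1 library left out (7.42% to 22.8%). The share of the longest *Csf1* transcript differed by -2.80 to 3.26 percentage points with 1 library left out, and that of the main *Csf3r* transcript by -1.62 to 5.59. The replicate numbers share no stated origin. Deviations from the group mean correlated at -0.156 and -0.0790 between same-numbered libraries. The deviations of the 2 WT libraries mirror each other, so these values cannot show whether libraries were paired. The replicate block gave 1216 genes higher and 1126 lower against 1869 and 2114 without it. *Adam17*-/- replicate 3 has no WT partner in that fit, so its group difference rests on replicates 1 and 2 of each group. The causes of these changes were not tested.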
